A study of Homo sapiens with 9 samples.

Results

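The human mitochondrial chromosome carries 37 genes, 13 for proteins, 2 for ribosomal RNAs and 22 for tRNAs, and all 37 were taken by NCBI Gene ID, whatever their counts, from the 28395 genes counted in every library. The cells were differentiated Caco-2, labelled WT, which derive from a human colon carcinoma and take on features of enterocytes when they differentiate, and were grown in 6-well plates. A group of 3 control libraries had regular medium alone, 3 libraries had 10 µM carmine and 3 had 20 µM carminic acid, each for 24 h, and nothing else was added to any group. Carminic acid is a red anthraquinone dye from cochineal, and carmine is the complex it forms with aluminium. Whether the 3 samples of a group, lettered A to C, were separate cultures is not stated in the labels, and the p-values then reflect spread among samples that may be technical only. Because the compounds also differ in dose, their values stand side by side and were not tested against each other, and both comparisons use the same 3 control libraries.

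The mitochondrial chromosome is transcribed on both strands as long precursors, and the tRNAs that lie between most of the other genes are cut out to release mRNAs and rRNAs. The heavy-strand promoter gives both rRNAs, 12 mRNAs and most tRNAs, and the light-strand promoter gives ND6 and 8 tRNAs. The proteins are subunits of respiratory complexes I, III and IV and of ATP synthase, which are completed by nuclear-encoded partners, and enterocytes draw on them for nutrient uptake and ion transport. In bulk RNA, a change in the number of mitochondria, in genome copies and in RNA per genome cannot be told apart, nor can fewer cells of a type and less RNA per cell.

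Total counts lay between 54871018 and 57581301 per library, of which 551674 to 1406998 fell on the mitochondrial genes. Of 8 enterocyte markers, 7 were expressed in every library, with a summed level of 4763 to 5196 CPM (counts per 1000000 counts of a library, after TMM scaling), and KRT20 was at 0 in all 9. Of the leukocyte markers, PTPRC was at most 0.0547 CPM and CD3E at most 0.609, while CD68, a lysosomal protein, lay at 299.7 to 389 CPM. Of the stromal markers, COL1A2 was at most 0.0357 CPM, PDGFRB lay at 4.87 to 6.55 and COL1A1 at 93.7 to 146 CPM. Of the goblet markers, MUC2 and SPDEF were at most 0.143 CPM and TFF3 lay at 12.6 to 26.0 CPM, and of the endothelial ones PECAM1 lay at 9.77 to 12.5, VWF at 0.806 to 1.36 and CDH5 at 0.103 to 0.214 CPM. The 3 muscle markers were at most 0.2004 CPM each. Summed levels of each list overlapped between control and each treatment, and the part of such genes in the results was not tested. The labels name no batch.

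Among the 22 tRNA genes, 18 had 0 counts in every library, and only TRNF, TRNN, TRNC and TRNP, which carry phenylalanine, asparagine, cysteine and proline, had any. These 4 sequences are shown because they are the tRNA genes that the counting reached. They are the sense strand of each gene, 5′ to 3′ and in lower case throughout, from the GENCODE 29 transcripts, with positions on the mitochondrial chromosome of GRCh38.
TRNF: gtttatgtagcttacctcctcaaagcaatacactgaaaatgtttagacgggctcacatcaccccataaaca
TRNN: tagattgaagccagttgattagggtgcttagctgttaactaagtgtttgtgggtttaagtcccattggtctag
TRNC: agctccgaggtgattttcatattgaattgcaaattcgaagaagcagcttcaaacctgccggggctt
TRNP: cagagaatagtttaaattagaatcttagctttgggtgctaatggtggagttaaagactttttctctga
TRNF (positions 577 to 647) and TRNP (15956 to 16023) are the first and last genes of the map and border the control region, which holds no annotated gene. TRNN (5657 to 5729) and TRNC (5761 to 5826) face each other across an unannotated stretch of 31 bases. No tRNA gene at 0 has more than 25 bases between it and the next annotated gene on either side. How reads that reach into a neighbouring gene were assigned is not given in the sources used here. A total of 3 counts, the limit that a count of 0 allows, is 0.0515 to 0.0547 CPM, and all tRNA counts together made up 0.0688% of the mitochondrial counts. The tRNA values therefore describe reads that the counting kept, not tRNA levels.

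Mitochondrial RNA took a smaller share of all counts in carmine than in control. The 37 genes held 1.95%, 2.52% and 2.43% of counts in control libraries A, B and C, and 1.29%, 1.30% and 0.974% in the carmine libraries. In carminic acid they held 1.49%, 1.24% and 2.08%. No carmine library reached the lowest control library. Carminic acid libraries A and B lay below the controls and library C lay inside their range. The mean was 2.30% ± 0.308 (SD, n = 3) in control, 1.19% ± 0.185 (SD, n = 3) in carmine and 1.60% ± 0.433 (SD, n = 3) in carminic acid. An exact two-sided permutation test gave p = 0.1 for carmine, the smallest that 3 against 3 allows, and p = 0.2 for carminic acid. The widest 95% Wilson interval of a library's share, 0.00821 percentage points, covers counting error only.

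**Figure D1:**
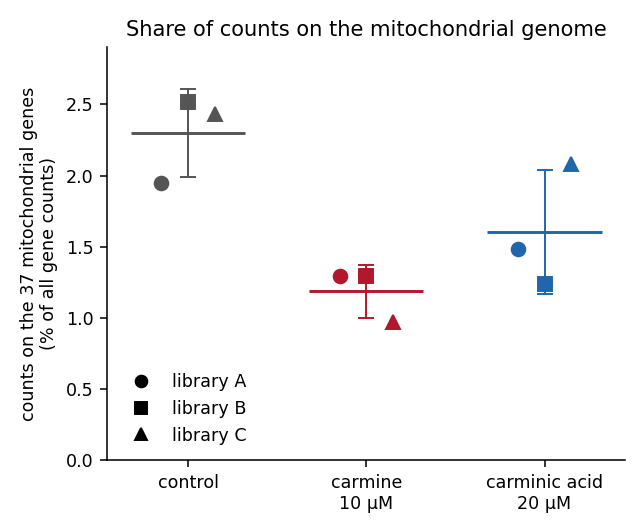
Share of all gene counts on the 37 mitochondrial genes, in percent (vertical axis from 0), by group; points are libraries, horizontal lines group means and bars ± SD (n = 3). The carmine libraries lie between 0.974% and 1.30%, below all controls (1.95% to 2.52%), while carminic acid library C (2.08%) lies among the controls.

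The genes were tested with edgeR's quasi-likelihood model on the whole table, over 16017 genes with enough counts, with Benjamini-Hochberg adjustment and a threshold of 0.05. The 13 mRNAs, both rRNAs, TRNP, TRNN and TRNC passed the filter on low counts, 18 genes in all, and 19 tRNA genes did not. None of the 18 was called in either comparison, as was no gene of the table (0% in each). In carmine the median log2 fold change of the 18 was -0.84, with 16 below 0, against 0.01 over all tested genes. Without overlap of the groups, 14 of the 18 were lower in carmine, where 7.67% of all tested genes were. At an unadjusted p under 0.05, 15 of the 18 were lower, where 5.61% of all genes were lower and 1760 genes passed in either direction. In carminic acid the median was -0.48 with all 18 below 0, against -0.01 over all tested genes. There, 3 of the 18 (COX1, ATP8 and TRNN) lay below every control, where 8.82% of all genes did. At an unadjusted p under 0.05, 8 of the 18 were lower in carminic acid, where 3.91% of all genes were and 1029 genes passed in either direction.

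Whether the mitochondrial genes passed the threshold in carmine depended on the test. DESeq2 called 8 of them, all lower, among 59 genes lower in the table (0.408%). With limma-voom and quality weights 9 were called, all lower, among 34 (0.212%), and edgeR fitted to the 6 control and carmine libraries alone called 8, all lower, among 11 (0.0697%). ND1, COX1, COX3, ND4, ND5 and CYTB, 6 genes, were called by all 3 of these, and 11 genes by at least 1. The edgeR fit of 8 libraries called 8 without carminic acid library C, 5 without carminic acid library B and 0 without carminic acid library A. The share of all tested genes called in these fits of 8 libraries is not given here. In carmine, none was called by the 9-library edgeR fit under other scalings or filters, non-robust estimation or removal of length and GC trends. In carminic acid, none of the 18 was called by DESeq2, by limma-voom or by the fit of 6 libraries. Over the table these called 5, 27 and 36 genes lower and 1, 7 and 13 higher in carminic acid. The genes tested were 16002, 16017 and 15782.

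The 2 ribosomal RNAs stood far apart in level. RNR1, the RNA of the small mitochondrial ribosomal subunit, had 433, 559 and 526 CPM in control libraries A, B and C, 315, 379 and 203 CPM in carmine and 344, 339 and 442 CPM in carminic acid. RNR2, the RNA of the large subunit, had 4219, 5461 and 5782 CPM in control, 2976, 3369 and 2205 CPM in carmine and 3631, 3248 and 4858 CPM in carminic acid. For both, every carmine library was below every control, carmine library C was the lowest of all, and carminic acid library C lay in the control range. The log2 fold change in carmine was -0.76 (SE 0.222, adjusted p = 0.38 by edgeR) for RNR1 and -0.85 (SE 0.193, adjusted p = 0.301) for RNR2. In carminic acid it was -0.43 (SE 0.221) for RNR1 and -0.40 (SE 0.192) for RNR2, each with an edgeR adjusted p of 0.717.

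Complex I, NADH dehydrogenase, passes electrons from NADH to ubiquinone, and 7 of its subunits are mitochondrial, ND1 to ND6 and ND4L. In carmine their log2 fold changes ran from -0.99 to -0.60 with a median of -0.83, and in carminic acid from -0.60 to -0.18 with a median of -0.41. ND1 and ND2 sit in the membrane arm, ND1 at the ubiquinone end. ND1 had 1261, 1379.6 and 1493 CPM in control, 692, 732 and 678 CPM in carmine and 894, 721 and 1355 CPM in carminic acid. ND2 had 1011, 1370.4 and 1618 CPM in control, 719.7, 754 and 562 CPM in carmine and 884, 678 and 1457 CPM in carminic acid. All carmine libraries lay below all controls for both genes, and only carminic acid library C reached the control range. The log2 fold change in carmine was -0.98 (SE 0.193, edgeR adjusted p = 0.199) for ND1 and -0.97 (SE 0.314, edgeR adjusted p = 0.393) for ND2.

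ND4 and ND5 are the large proton-pumping subunits of the membrane arm. ND4 had 1889.8, 2598 and 2435 CPM in control, 1203, 1194 and 1099 CPM in carmine and 1429.5, 1043 and 2085 CPM in carminic acid. ND5 had 838, 929 and 943 CPM in control, 561, 476 and 492 CPM in carmine and 629, 565 and 900.0 CPM in carminic acid. For both genes every carmine library lay below every control, and carminic acid library C was inside the control range. Carminic acid libraries A and B lay below every control, A above every carmine library for both genes, and B below them for ND4 and just above them for ND5. The smallest adjusted p of any mitochondrial gene in carmine was that of ND5, 0.1 by edgeR, with a log2 fold change of -0.83 (SE 0.141). For ND4 it was -0.99 (SE 0.234, edgeR adjusted p = 0.332). In carminic acid the log2 fold change was -0.37 (SE 0.141) for ND5 and -0.60 (SE 0.232) for ND4, each with an edgeR adjusted p of 0.717.

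ND3 and ND4L are the small subunits, and they are cut from the precursor on either side of TRNR. ND3 had 285, 433 and 429.6 CPM in control, 296, 294 and 164 CPM in carmine and 287, 248 and 461 CPM in carminic acid. Among the 15 mRNAs and rRNAs it was the only gene whose carmine and control ranges overlapped, since carmine libraries A and B exceeded control library A. Its log2 fold change was -0.60 (SE 0.339, edgeR adjusted p = 0.533) in carmine and -0.21 (SE 0.338, edgeR adjusted p = 0.871) in carminic acid. ND4L had 319, 474 and 415 CPM in control, 270.4, 263 and 155 CPM in carmine and 244, 190.4 and 386 CPM in carminic acid, and its log2 fold change in carmine was -0.81 (SE 0.336, edgeR adjusted p = 0.453). ND4L and ND4 share 7 bases (positions 10760 to 10766), ATGCTAA, and are read from 1 mRNA. The ratio of ND4 to ND4L counts was 5.92, 5.48 and 5.87 in control, 4.45, 4.54 and 7.11 in carmine and 5.85, 5.48 and 5.40 in carminic acid. Carmine library C stood above all other libraries in this ratio and libraries A and B below them.

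Complex III passes electrons from ubiquinol to cytochrome c, and CYTB, cytochrome b, is its mitochondrial subunit. CYTB had 520.2, 824 and 674 CPM in control, 375, 333 and 361 CPM in carmine and 455, 391 and 599.5 CPM in carminic acid. Its carmine libraries were close together and below every control, and its log2 fold change was -0.92 (SE 0.181, edgeR adjusted p = 0.197). In carminic acid it was -0.48 (SE 0.18, edgeR adjusted p = 0.717), with library C in the control range.

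Complex IV, cytochrome c oxidase, reduces oxygen, and COX1, COX2 and COX3 form its core. COX1, which holds the site of oxygen reduction, had 5049, 6099 and 5476 CPM in control, 3227, 3098 and 2395 CPM in carmine and 3453, 3044 and 4851 CPM in carminic acid. It was below every control in all 6 treated libraries, with a log2 fold change of -0.93 (SE 0.165, edgeR adjusted p = 0.116) in carmine and -0.55 (SE 0.164, edgeR adjusted p = 0.717) in carminic acid. COX2, which takes electrons from cytochrome c, had 918, 1546 and 1309.7 CPM in control, 529, 612 and 427 CPM in carmine and 701, 589.8 and 1109.7 CPM in carminic acid. Its carmine libraries lay below all controls, and its log2 fold change, -1.27 (SE 0.297, edgeR adjusted p = 0.332), was the lowest of the 18 genes. COX3 had 1301, 1780.4 and 1622 CPM in control, 933, 821 and 698 CPM in carmine and 1015, 849.9 and 1418 CPM in carminic acid. The COX3 log2 fold change was -0.94 (SE 0.194, edgeR adjusted p = 0.229) in carmine and -0.52 (SE 0.193, edgeR adjusted p = 0.717) in carminic acid.

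ATP8 and ATP6 are subunits of the membrane sector of ATP synthase, the part that carries the proton flow. Their genes overlap by 46 bases (positions 8527 to 8572), and the ATP8 gene is shown because reads in that stretch, in capitals, cannot be given to either gene alone.
ATP8: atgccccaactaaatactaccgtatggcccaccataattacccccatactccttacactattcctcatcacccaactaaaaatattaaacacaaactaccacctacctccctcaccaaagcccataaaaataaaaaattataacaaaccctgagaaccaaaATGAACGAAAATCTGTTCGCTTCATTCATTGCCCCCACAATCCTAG
ATP8 had 104, 131 and 142 CPM in control, 65.2, 70.2 and 82.6 CPM in carmine and 77.6, 56.2 and 102 CPM in carminic acid. ATP6 had 841, 1146 and 1104 CPM in control, 533, 554 and 438 CPM in carmine and 564, 457 and 1009.8 CPM in carminic acid. Every treated library was below every control for ATP8, while carminic acid library C was inside the control range for ATP6. The log2 fold change in carmine was -0.79 (SE 0.206, edgeR adjusted p = 0.334) for ATP8 and -1.02 (SE 0.303, edgeR adjusted p = 0.384) for ATP6. In carminic acid it was -0.68 (SE 0.206) and -0.61 (SE 0.301), both with an edgeR adjusted p of 0.717. The ratio of ATP6 to ATP8 counts was 8.06, 8.73 and 7.79 in control and 8.18, 7.89 and 5.30 in carmine, so that carmine library C stood apart here too. In carminic acid the ratio was 7.27, 8.13 and 9.89. Which reads of the shared stretch went to which gene is not given in the sources used here.

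**Figure D2:**
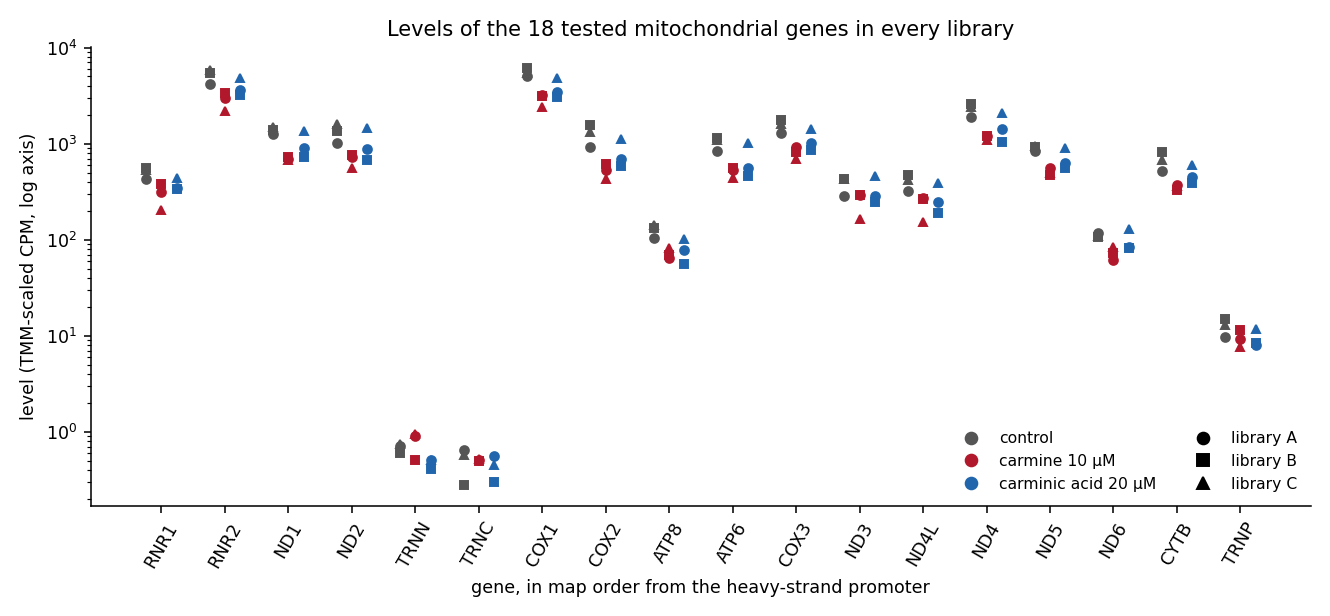
Levels of the 18 tested mitochondrial genes in TMM-scaled CPM on a log axis, in map order, by group (colour) and library (shape). COX1 and RNR2 are highest and TRNN and TRNC lowest, and for 14 of the 18 genes every carmine library lies below every control.

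ND6, the membrane-arm subunit of complex I encoded on the opposite strand, comes from the light-strand promoter. It had 119, 108 and 109.8 CPM in control, 62.1, 73.3 and 83.4 CPM in carmine and 85.2, 83.2 and 129.7 CPM in carminic acid. The carmine libraries were below all controls, and carminic acid library C was the highest of all 9. The log2 fold change was -0.62 (SE 0.16, edgeR adjusted p = 0.332) in carmine and -0.18 (SE 0.159, edgeR adjusted p = 0.771) in carminic acid. Per 1000 counts on the 12 mRNAs of the heavy-strand promoter there were 8.27, 5.78 and 6.21 ND6 counts in control, 6.60, 7.97 and 11.1 in carmine and 8.01, 9.42 and 8.24 in carminic acid. The ranges overlapped in both comparisons, with exact two-sided permutation p = 0.3 in each (3 libraries against 3, the smallest possible being 0.1). The difference in carmine, 1.78, was 0.530 without carmine library C. Whether the counting used strand is not given in the sources used here. Reads of ND6 and of the heavy-strand precursor across it therefore cannot be told apart, and the same holds for TRNP, TRNN and TRNC.

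TRNP, the last gene of the map and part of the light-strand transcript, had 541, 842 and 746 counts in control, 543, 640 and 420 in carmine and 464, 469 and 657 in carminic acid. The groups overlapped, and its log2 fold change was -0.41 in both comparisons (SE 0.187 in each), with edgeR adjusted p = 0.453 in carmine and 0.717 in carminic acid. TRNN had 40, 34 and 43 counts in control, 53, 29 and 53 in carmine and 29, 23 and 28 in carminic acid. All carminic acid libraries of TRNN were below the controls, and the carmine libraries lay on both sides of them. The TRNN log2 fold change was 0.21 (SE 0.284, edgeR adjusted p = 0.798) in carmine and -0.54 (SE 0.296, edgeR adjusted p = 0.717) in carminic acid. TRNC had 36, 16 and 33 counts in control, 30, 28 and 29 in carmine and 32, 17 and 25 in carminic acid, and its log2 fold change was 0.03 (SE 0.349) and -0.19 (SE 0.354). The 95% interval of the TRNC log2 fold change in carmine ran from -0.71 to 0.78. TRNF had 11 counts in all, 0 to 3 in a library, and was not tested.

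**Figure D3:**
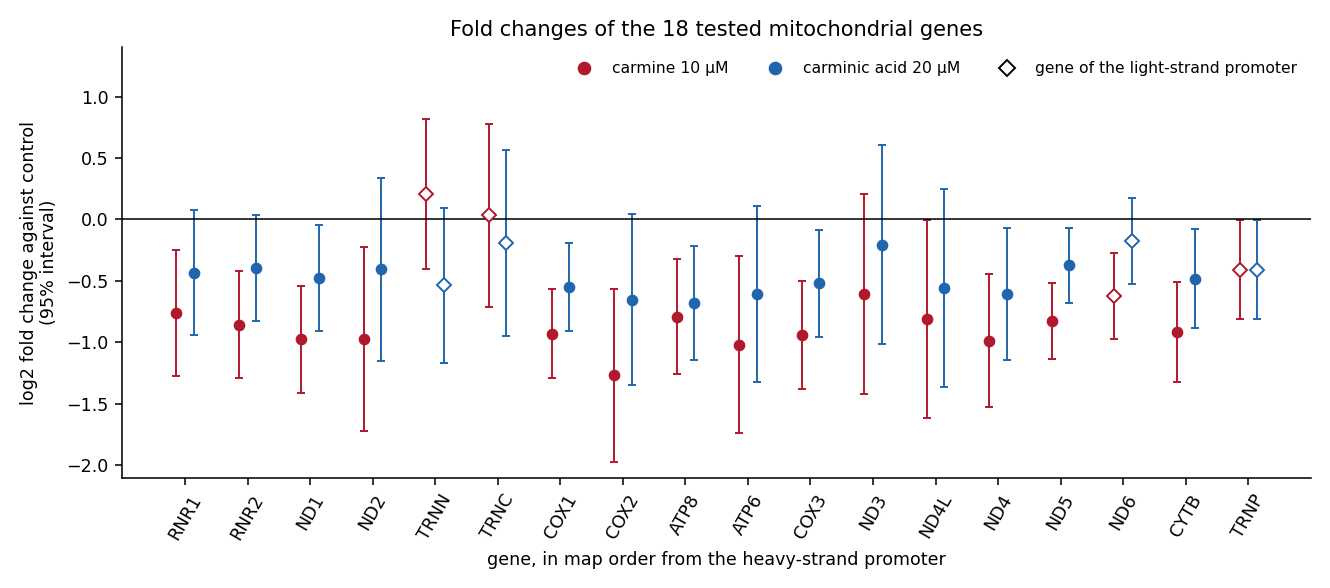
Log2 fold change against control with its 95% interval from edgeR (vertical axis) for the 18 tested genes in map order, for 10 µM carmine and 20 µM carminic acid; open diamonds are genes of the light-strand promoter. In carmine the 15 mRNAs and rRNAs lie between -1.27 and -0.60, TRNN and TRNC lie at 0.21 and 0.03, and intervals of ND3, TRNN and TRNC cross 0.

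The balance between classes of mitochondrial RNA overlapped between the groups. RNR1 and RNR2 together made up 24.3%, 24.2% and 26.2% of mitochondrial counts in control, 25.8%, 28.8% and 24.0% in carmine and 27.0%, 28.7% and 25.0% in carminic acid. The difference was 1.25 points in carmine (exact two-sided permutation p = 0.7) and 1.998 points in carminic acid (p = 0.2 by the same exact test). Without carmine library B the difference in carmine was -0.0442 points. Complex IV mRNAs made up 49.2% ± 1.66 (SD, n = 3) of the counts on the 13 mRNAs in control, 48.2% ± 1.82 in carmine and 48.3% ± 1.89 in carminic acid. Complex I mRNAs made up 40.1% ± 1.63 (SD, n = 3) in control, 41.1% ± 1.12 in carmine and 41.3% ± 1.58 in carminic acid. ATP8 and ATP6 together made up 6.78%, 6.62% and 6.25% on average in control, carmine and carminic acid, and CYTB 3.92%, 4.09% and 4.14%. The ranges of all these complex shares overlapped between control and each treatment.

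Some members departed from the common pattern, and their ratios were chosen after the values were seen and carry no test. TRNP had 0.676, 0.795 and 0.740 counts per 1000 counts on the 12 heavy-promoter mRNAs in control, 0.992, 1.24 and 1.01 in carmine and 0.764, 0.948 and 0.756 in carminic acid. TRNN and TRNC together had 0.0950, 0.0472 and 0.0754 in control, 0.152, 0.110 and 0.198 in carmine and 0.101, 0.0809 and 0.0610 in carminic acid. Both ratios were higher in every carmine library than in every control, and both overlapped the controls in carminic acid. ND3 had 19.8, 23.0 and 24.2 counts per 1000 on the 13 mRNAs in control, 31.3, 31.7 and 21.5 in carmine and 26.8, 27.8 and 29.1 in carminic acid. All carminic acid libraries were above the controls in the ND3 ratio, and carmine library C was within them.

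**Figure D4:**
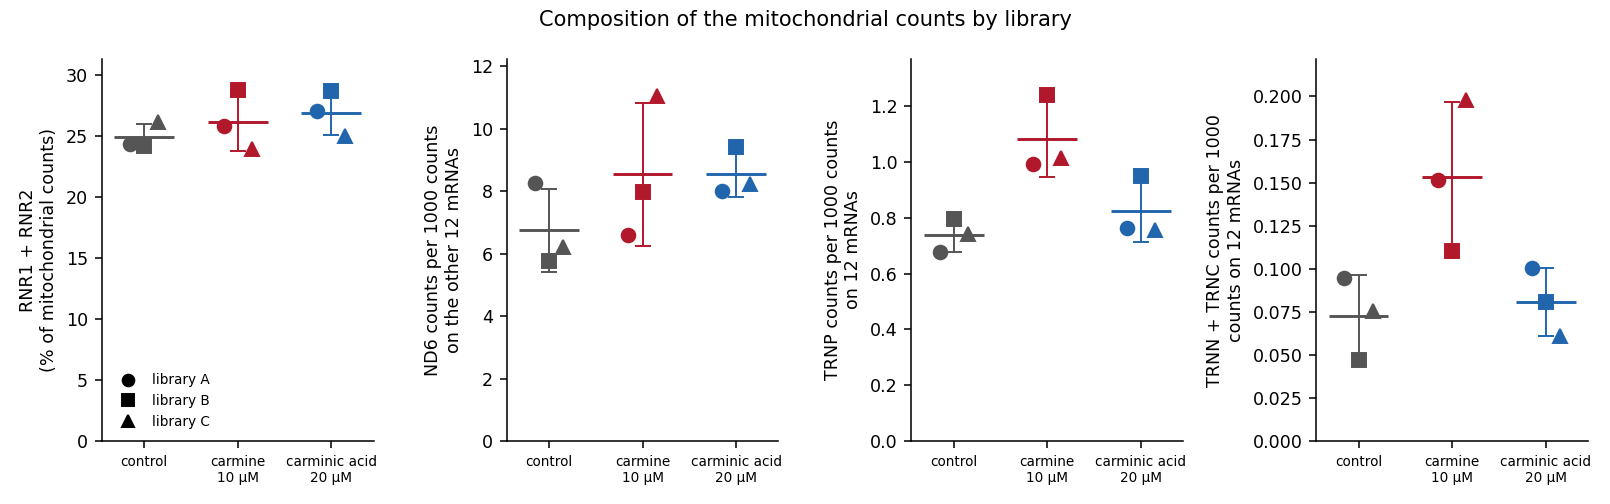
Composition of the mitochondrial counts by library: rRNA share in percent of mitochondrial counts, and ND6, TRNP, and TRNN plus TRNC counts per 1000 counts on the 12 heavy-promoter mRNAs (axes from 0); lines are means and bars ± SD (n = 3). The rRNA share and ND6 overlap between groups, while TRNP is 0.992 to 1.24 in carmine against 0.676 to 0.795 in control.

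Levels per gene length varied among the 15 mRNAs and rRNAs within the same cells. In control, COX1 had 3594 CPM per 1000 bases and RNR2 3306, and their ranges overlapped. A gap without overlap separated these from COX3, at 2000.0 CPM per 1000 bases, which headed a run of COX2, ND4, ATP6, ND1, ND4L, ND2 and ND3 (1106) whose neighbours overlapped. ATP8, CYTB, RNR1 and ND5 followed without overlap with ND3, at 607.9 to 498.5 CPM per 1000 bases, and ND6 was the lowest of the 15 at 213.6, below the range of ND5. RNR1 was low for a gene that shares its promoter and precursor with RNR2: the ratio of RNR2 to RNR1 counts was 9.74, 9.77 and 11.0 in control. It was 9.44, 8.90 and 10.8 in carmine and 10.6, 9.59 and 11.0 in carminic acid, with carmine libraries A and B and carminic acid library B below the lowest control. Over the 14 mRNAs and rRNAs of that strand, Spearman's rho of the log2 fold change with distance was 0.0418 in carmine and -0.0989 in carminic acid, as a description, since the genes share precursors and libraries.

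The nuclear genes that work with the mitochondrial genome were read in the same edgeR fit from lists of named genes, and no gene of any list was called in either comparison. In carmine, DESeq2 called 1 gene higher in each of the lists for complex I, complex III and mitophagy, among 17 genes higher in the table (0.118%). By limma-voom 1 was higher in complex I and 1 in complex III, among 9 (0.0562%). With RLE size factors or library size alone 1 complex I gene was called, among 2 (0.0125%), and with no filter also 1, among 2 (0.00895%). With length and GC trends removed, a setting added after seeing the data, 6 complex I, 2 complex III and 1 mitophagy genes were called higher, among 132 (0.892%). Nuclear complex I subunits had a median log2 fold change of 0.15 in carmine, with 29 of 35 above 0 and 10 at an unadjusted p under 0.05, all higher, where 5.38% of all tested genes were higher at that p. For complex III the median was 0.21 (9 of 9 above 0, 3 higher at that p), for complex IV 0.18 (10 of 11, 5 higher) and for ATP synthase 0.13 (17 of 18, 4 higher). Complex II, which has no mitochondrial gene, had a median of 0.07 (4 of 4 above 0, 0 at that p). In carminic acid the medians of these lists were 0.02, 0.05, 0.06, -0.01 and 0.02. At an unadjusted p under 0.05, 1 of 35 complex I genes was higher and 1 lower in carminic acid. For complex II 1 of 4 was higher and 0 lower, and the lists for complex III, complex IV and ATP synthase had 0. Of all tested genes, 2.52% were higher and 3.91% lower at that p in carminic acid. The summed level of nuclear complex I subunits was 2547, 2595 and 2588 CPM in control, 2577, 2862 and 3249 CPM in carmine and 2548, 2746 and 2728 CPM in carminic acid. Carmine library C, lowest in mitochondrial RNA, was the highest, and carmine library A lay within the controls. Without carmine library C the medians were 0.05 for complex I, 0.12 for complex III and 0.07 for ATP synthase, and without carmine library A the complex I median was 0.24. The complex II median was 0.04 without control library A and also without carmine library B. When 1 library was left out, the carminic acid medians of these lists lay between -0.04 and 0.10.

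NDUFB5, an accessory subunit of complex I, had 125, 133 and 136 CPM in control, 170, 186 and 207 CPM in carmine and 122, 132 and 132 CPM in carminic acid. All its carmine libraries exceeded all controls, and its log2 fold change was 0.51 (SE 0.0799, edgeR adjusted p = 0.0536) in carmine and -0.03 (SE 0.0798, edgeR adjusted p = 0.913) in carminic acid. UQCRQ, a small subunit of complex III, had a log2 fold change of 0.37 (SE 0.0744, edgeR adjusted p = 0.132) in carmine. COX7A2L, which joins complexes III and IV in supercomplexes, was at 0.31 (SE 0.0821, edgeR adjusted p = 0.322), and COX5A, a subunit of complex IV, at 0.21. For the mitochondrial subunits of the same complexes, the carmine medians were -0.83 (complex I), -0.92 (CYTB) and -0.94 (complex IV). ATP5F1E and ATP5F1A, of the catalytic sector of ATP synthase, had 0.31 and 0.19, and NDUFS6 of complex I had 0.35. SDHB and SDHA, subunits of complex II, had 0.12 and 0.11. The genes with the smallest p in carminic acid were NDUFV1 (0.21), UQCRC1 (0.23), COX7B (-0.16), ATP5IF1 (-0.12) and SDHA (0.16) on the log2 scale, and the adjusted p by edgeR was at least 0.717 for each. In carmine these genes had 0.20, 0.36, -0.01, 0.01 and 0.11 in the same order.

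**Figure D5:**
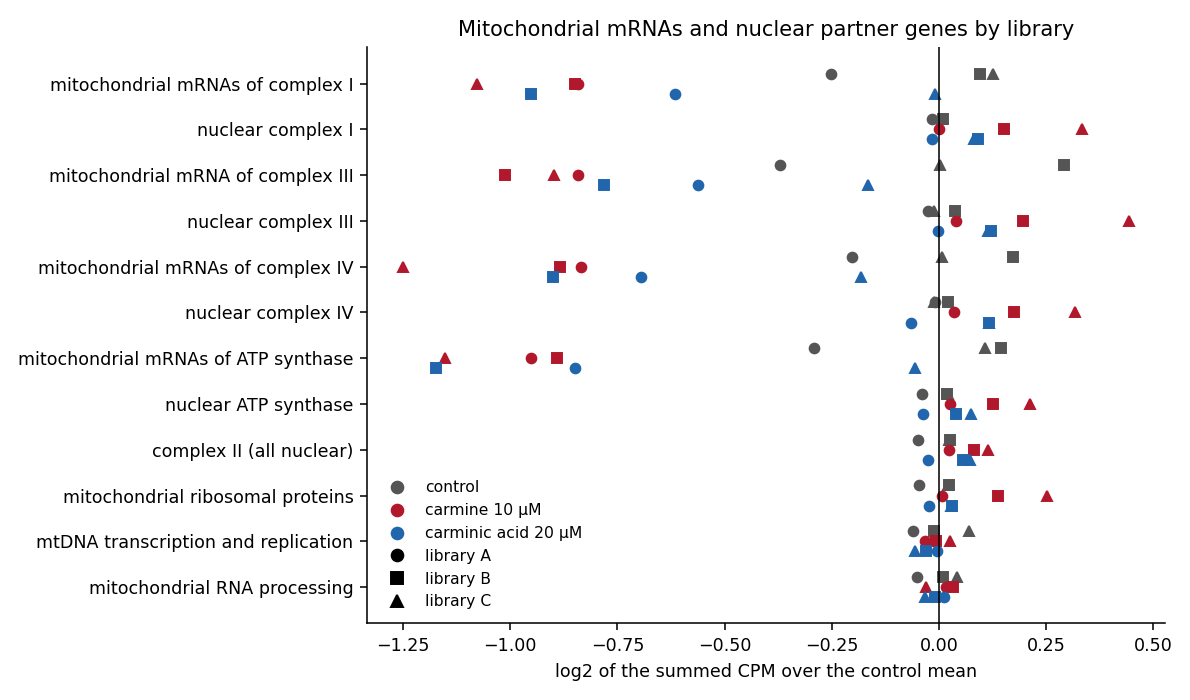
Log2 of the summed CPM over the control mean for mitochondrial mRNAs and for nuclear lists (rows), by group (colour) and library (shape). Mitochondrial mRNAs of the complexes lie left of 0 in every carmine library, while nuclear subunits of the same complexes lie at or right of 0 with carmine library C farthest right; lists for mtDNA transcription and RNA processing stay near 0.

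In carmine, genes that act on the mitochondrial chromosome and its RNA had medians close to 0. The list for transcription and replication of mitochondrial DNA had a median log2 fold change of -0.01 in carmine (8 of 19 above 0, 0 at an unadjusted p under 0.05) and -0.10 in carminic acid (6 of 19 above 0, 1 lower at that p). In carminic acid, 5 of its 19 genes lay below every control, where 8.82% of all tested genes did. Another 2 lay above every control, and the share of all tested genes that did is not given here. TFB2M, which opens the promoter for the mitochondrial RNA polymerase, had 18.02, 18.2 and 19.1 CPM in control, 20.9, 20.9 and 20.4 CPM in carmine and 17.0, 16.5 and 16.4 CPM in carminic acid. It was above every control in all carmine libraries and below every control in all carminic acid libraries. Its fold change on the log2 scale was 0.17 (SE 0.0791, edgeR adjusted p = 0.454) in carmine and -0.15 (SE 0.0795, edgeR adjusted p = 0.717) in carminic acid. SSBP1, the mitochondrial single-stranded DNA-binding protein, had a log2 fold change of -0.52 in both comparisons with overlapping groups, and MTERF2 had -0.28 in carminic acid. For processing, stability and decay of mitochondrial RNA the median was 0.02 in both comparisons, with 20 and 18 of 33 genes above 0. HSD17B10, part of the enzyme that cuts tRNA 5′ ends, had 0.24 in carmine, ERAL1, a chaperone of the small-subunit rRNA, had 0.14, and FASTKD1 had -0.38 in carminic acid. Mitochondrial ribosomal protein genes had a median of 0.12 in carmine (69 of 76 above 0, 12 higher at that p) and -0.01 in carminic acid (36 of 76). At that p, 5.38% of all tested genes were higher in carmine. The carmine median of the ribosomal protein genes was 0.08 without carmine library C and 0.19 without carmine library A. The lists for mitochondrial DNA and RNA had carmine medians of -0.06 to 0.02 and -0.02 to 0.04 when 1 library was left out. Their carminic acid medians were -0.12 to -0.07 and -0.04 to 0.02 in the same way. MRPL52 and MRPL11 of the large subunit had 0.32 and 0.28 in carmine, and MRPL42 had -0.22 in carminic acid.

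The lists for control of biogenesis, mitochondrial stress, mitophagy and sensing of mitochondrial nucleic acid had medians between 0.01 and 0.08 in carmine and between -0.02 and 0.07 in carminic acid. At an unadjusted p under 0.05, 1, 1, 2 and 0 of their 11, 13, 13 and 13 tested genes were higher in carmine, and 0 were lower. Over all tested genes, 5.38% were higher and 5.61% lower in carmine at that p. In carminic acid, 2 mitophagy genes were higher and 1 lower at that p, and 0 in the other lists. Over all tested genes, 2.52% were higher and 3.91% lower there. When 1 library was left out, the carmine medians of these lists lay between -0.03 and 0.12 and the carminic acid medians between -0.08 and 0.10. BNIP3, a mitophagy receptor, had 337, 349 and 365 CPM in control, 406, 435 and 424 CPM in carmine and 350, 376 and 386 CPM in carminic acid. All carmine libraries of BNIP3 lay above all controls, and its fold change was 0.27 on the log2 scale (SE 0.0678, edgeR adjusted p = 0.3). BNIP3L, its relative, had 0.17 in carmine and -0.05 in carminic acid, and DNM1L, the fission enzyme, had -0.17 in carmine and -0.21 in carminic acid. ESRRA and PPARGC1B, regulators of mitochondrial genes, had 0.34 and -0.19 in carmine, and GABPB1 had -0.16 in carminic acid. The protease gene CLPP and the stress relay gene DELE1 had 0.25 and 0.12 in carmine, and LONP1, also a protease, had 0.18 in carminic acid. CGAS, a sensor of DNA, had -0.18 in carmine and -0.15 in carminic acid, and IFIT2, an interferon target, had -0.23 in both. DDX60 had -0.29 in carmine and -0.54 in carminic acid at about 1 CPM or less.

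Long noncoding RNAs that stay in the nucleus were read as a sign of how nuclear and cytoplasmic RNA were sampled. Their median log2 fold change was -0.29 in carmine (0 of 5 above 0, 1 lower at an unadjusted p under 0.05) and -0.47 in carminic acid (0 of 5, 2 lower at that p). Over all tested genes, 5.61% were lower at that p in carmine and 3.91% in carminic acid. Without 1 library the carmine median of these RNAs ran from -0.52 (without carmine A) to -0.17 (without carmine C), with -0.45 without control C. Their carminic acid median ran from -0.64 (without control C) to -0.12 (without control A). It was -0.61 without carminic acid A, -0.57 without carminic acid B and -0.28 without carminic acid C. NEAT1, which builds paraspeckles, had 461, 402 and 307 CPM in control, 323, 244 and 245 CPM in carmine and 252, 299 and 216 CPM in carminic acid, with log2 fold changes of -0.53 and -0.61. By limma-voom 2 of the 5 were called lower in carminic acid, among 27 genes lower in the table (0.169%), and 0 in carmine. TUG1 had -0.20 in carmine and -0.11 in carminic acid, below all controls in both. The summed level of the 5 was 2378, 2209 and 2152 CPM in control, 2229, 2002 and 1684 CPM in carmine and 1965, 1940 and 1878 CPM in carminic acid. Carmine library C was lowest both here and in mitochondrial RNA, but carminic acid library C, near control in mitochondrial RNA, was below all controls here. The part of RNA sampling in the mitochondrial values was not tested.

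Copies of mitochondrial genes in the nuclear genome can share reads with them. Of 20 such genes listed, 10 were counted in the files, all of the MTRNR2L family of RNR2 copies, and 4 of these were at 0 in every library. Together they held 94 to 232 counts per library, and 2 were tested. MTRNR2L10 had 124, 173 and 189 counts in control, 93, 123 and 76 in carmine and 142, 136 and 133 in carminic acid. Its carmine libraries were below all controls, with a log2 fold change of -0.73 (SE 0.202, edgeR adjusted p = 0.332). In carminic acid MTRNR2L10 had -0.23 with overlapping groups. MTRNR2L8, with 10 to 35 counts per library, had -0.67 in carmine and -0.87 in carminic acid, below all controls in both. With length and GC trends removed, 1 of the 2 was called lower in carmine, among 75 genes lower in the table (0.507%). Their counts are uncertain, since reads of RNR2 may be among them.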

How the data were processed

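Total RNA of 9 Caco-2 libraries, 3 a group, was, per the labels' protocols, isolated with the RNeasy Mini Kit before sequencing. Each deposited file holds 1 library's raw counts by NCBI Gene ID, which the authors made from HISAT2 alignments, per the file headers. The submitters' processing notes name FastQC, HISAT, featureCounts and hg38 and give no version. Not given in the sources used here were the library kit, the strand setting, the annotation release and the handling of multi-mapping and overlapping reads. How much rRNA or short RNA the library step kept is likewise not given, and this bears on RNR1, RNR2 and the tRNAs.

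Symbols and positions came from the RefSeq table of GRCh38.p14, which named 27745 of 28395 genes and all 37 mitochondrial ones, and sequences came from GENCODE 29 transcripts. The counts were fitted with edgeR 4.0.16 (R 4.3.3): filterByExpr by group (16017 genes kept), TMM scaling, 1 robust quasi-likelihood model of all 9 libraries without covariates, 2 two-sided contrasts, and Benjamini-Hochberg adjustment over all tested genes with a threshold of 0.05. CPM are TMM-scaled. The steps were tested on simulated data. Shares and ratios used raw counts and an exact permutation test over libraries (scipy 1.17.1). Libraries of a group differed by more than sampling noise (chi-square per degree of freedom at least 9.51). Deviations from the group means were not shared by same-letter libraries (correlations -0.149 to 0.0952), so the letters were not used as pairs. The members, lists, comparisons and alternatives were chosen with earlier results of these data known. All members are named, and of every other list the 2 genes with the smallest p in carmine and the 1 in carminic acid. Alternatives were DESeq2 1.42.0, limma-voom (limma 3.58.1) with quality weights, other scalings and filters, non-robust estimation, the 6 libraries of a comparison alone, the letter as a block, leaving out each library and, added after seeing the data, removal of length and GC trends over 14790 genes and list medians under every setting.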

Additional observations from a re-analysis of the deposited data

How the results depend on the processing

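For carmine, the count of mitochondrial genes called was 0 with edgeR on all 9 libraries, 8 with DESeq2, 9 with limma-voom and 8 with edgeR on the 6 libraries compared. Leaving out 1 library gave 0 to 8 called genes, 5 without carminic acid library B and 8 without carminic acid library C. For these fits the share of all tested genes called is not given here. For carminic acid, 0 were called in every one of these settings. In carmine, no mitochondrial gene was called with other scalings or filters, non-robust estimation or removal of length and GC trends. The median log2 fold change of the tested genes ran from -0.97 to -0.78 in carmine and from -0.72 to -0.35 in carminic acid when 1 library was left out. The difference in mitochondrial share ran from -1.29 to -1.002 points in carmine and from -0.934 to -0.514 points in carminic acid. The difference in rRNA share ran from -0.0442 (without carmine library B) to 2.35 points in carmine and from 1.12 to 2.94 points in carminic acid. The difference in ND6 per 1000 mRNA counts ran from 0.530 to 2.75 in carmine and from 1.31 to 2.56 in carminic acid.

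With the letter as a replicate block, 0 genes were called in both comparisons, and the medians were -0.83 in carmine and -0.50 in carminic acid. The letters carry no stated pairing, and the block changed no call of a mitochondrial gene. The sign of some low or weak values changed, and the cause was not tested. TRNC in carmine ran from -0.248 (without control library B) to 0.251 when 1 library was left out. TRNC in carminic acid ran from -0.479 to 0.0197 in the same way, above 0 without control library A or carminic acid library B. It was 0.0895 with limma-voom and 0.184 with length and GC trends removed. With those trends removed, ND3 and TRNP in carminic acid were 0.0124 and 0.132. The other mitochondrial genes kept the sign of their log2 fold change in all settings run. With 3 libraries a group and tRNA counts under 60 for TRNN and TRNC, small differences in these genes could not be seen.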
